A study of Loxodonta africana with 12 samples.

Results

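The change of the irradiation response with time was measured in African elephant (Loxodonta africana) blood, gene by gene, as the effect of 2 Gy at 24 h minus the effect of 2 Gy at 5 h. All 12 libraries of the series enter it, 3 in each of 4 groups, namely untreated at 5 h, irradiated at 5 h, untreated at 24 h and irradiated at 24 h. Of 16406 genes in the deposited tables, 15200 had enough counts to be tested. The labels give blood as the source of every group and name no genotype, sex or age. They do not say whether the numbered replicates came from separate animals, draws or cultures. All p-values therefore refer only to the spread among these 12 libraries, and that spread may be technical. Library totals were 31059389 to 38138163 counts at 5 h and 18022475 to 37356501 at 24 h. PTPRC, the pan-leukocyte phosphatase, lay between 3809 and 5809 CPM (counts-per-million of TMM-scaled library totals) in every library. CD3E of T cells lay between 37.8 and 94.9 CPM, and the myeloid integrin ITGAM between 754 and 3465 CPM. The neutrophil marker CSF3R lay between 1.16 and 6.56 CPM, and the platelet marker ITGA2B between 8.45 and 36.3 CPM.

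Ionizing radiation breaks DNA, and the break signal stabilizes the transcription factor p53. p53 in turn drives genes that halt the cell cycle, such as CDKN1A, genes that promote death, such as BAX, and its own inhibitor MDM2, a feedback that can make p53 activity rise and fall with time. Blood cell types differ in how readily they die after irradiation, B lymphocytes being known as a sensitive type, so a response in mixed blood can also follow from which cells remain. In bulk RNA, fewer cells of a type and less RNA per cell cannot be told apart.

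Most genes whose irradiation effect changed with time were lower after 2 Gy at 24 h and had no called effect at 5 h. By edgeR's quasi-likelihood test at an adjusted p below 0.05, the irradiation effect differed between the times for 134 genes (0.882% of those tested). It was lower at 24 h for 115 (0.757%) and higher for 19 (0.125%). Upper-quartile scaling called 89 lower and 33 higher. The time-point effects in the same fit gave 167 calls at 5 h (1.1%), of which 113 were higher (0.743%) and 54 lower (0.355%). At 24 h there were 1670 calls (11%), 508 higher (3.34%) and 1162 lower (7.64%). At an unadjusted p below 0.05 the interaction was higher for 432 genes (2.84%) and lower for 1080 (7.11%), and DESeq2 called 80 higher (0.526%) and 282 lower (1.86%). The median interaction over all tested genes was -0.01 on the log2 scale, and the median standard error 0.24. The interaction calls depended on single libraries. Without irradiated 5 h replicate 2 they numbered 76, without untreated 24 h replicate 1 they numbered 81, without untreated 5 h replicate 1 or 3 they numbered 82 and 87, without irradiated 5 h replicate 3 they numbered 85, and without untreated 24 h replicate 3 they numbered 86. The 19 higher calls became 51 without untreated 24 h replicate 2, 4 without irradiated 5 h replicate 2, and 7 to 12 without any other library except irradiated 24 h replicate 1. The lower calls numbered 72 to 76 without untreated 5 h replicate 1, irradiated 5 h replicate 2 or 3 or untreated 24 h replicate 1. Calls at 5 h numbered 103 to 109 without irradiated 5 h replicate 1 or 2 or untreated 5 h replicate 3, and calls at 24 h numbered 1035 and 1044 without irradiated 24 h replicate 2 and untreated 24 h replicate 3.

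Combining the 3 tests sorted the 134 genes into kinds of response. In 112 the effect was called at 24 h but not at 5 h (late-appearing), in 6 at 5 h but not at 24 h (transient), in 7 at both times with the same sign and more strongly at 24 h (growing), in 6 at both times and more strongly at 5 h (waning), and in 3 at both times with opposite signs. The name late-appearing refers to calls only: 36 of the 112 had a same-sign effect at 5 h at an unadjusted edgeR p below 0.05. No gene had a called interaction with neither time called, a count of 0 by edgeR, against 12 by DESeq2. A further 109 genes were called at both times in the same direction without a called interaction, and are named sustained here. The larger remainder, 1433 genes called at 24 h and 36 called at 5 h, had no called interaction, so a difference between the times was not shown for them. The late-appearing genes numbered 66 to 72 without untreated 5 h replicate 1, irradiated 5 h replicate 2 or 3, or untreated 24 h replicate 1 or 3. The growing genes numbered 3 or 4 without untreated 5 h replicate 2 or 3, irradiated 5 h replicate 1 or 2 or untreated 24 h replicate 1.

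**Figure D1:**
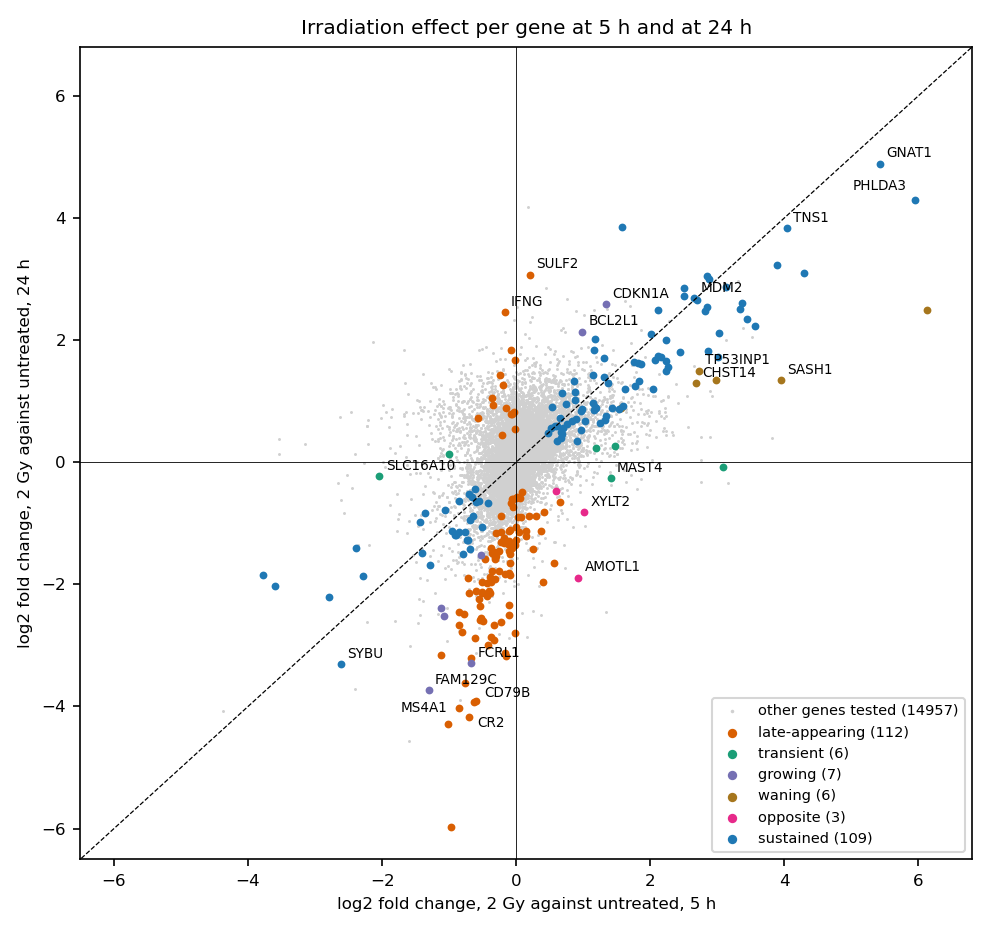
Each point is a tested gene, with the log2 effect of 2 Gy at 5 h on the horizontal axis and at 24 h on the vertical axis, coloured by kind of response. The dashed line marks equal effects; the 112 late-appearing genes have a median 5 h effect of -0.21 and lie mostly below 0 on the vertical axis, and the 109 sustained genes scatter about the dashed line.

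Of the 113 genes called higher at 5 h, 87 (77%) were also called higher at 24 h, and of the 54 called lower, 35 (64.8%) were called lower again. Seen from 24 h the shares were smaller: 87 of 508 higher calls (17.1%) and 35 of 1162 lower calls (3.01%) had been called at 5 h in the same direction. Most early calls were thus called again at 24 h. Most late calls had no early call, but the call totals fix this in advance. Only 113 higher and 54 lower calls were made at 5 h, against 508 and 1162 at 24 h. The smaller shares seen from 24 h therefore do not describe the course of the genes.

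AMOTL1, which encodes a scaffold protein of cell junctions that binds the Hippo pathway effector YAP, rose early and fell late. Its level was 14.3, 16.5 and 14.5 CPM in the untreated libraries at 5 h and 26.5, 30.7 and 28.9 CPM in the irradiated ones. At 24 h it was 22.2, 20 and 22.9 CPM untreated and 5.84, 5.51 and 6.24 CPM irradiated. At neither time did the groups overlap, and the irradiated libraries were the highest of the 4 groups at 5 h and the lowest at 24 h. The effect was 0.93 at 5 h and -1.89 at 24 h on the log2 scale, a difference of -2.82 ± 0.15 (SE, adjusted p = 2.1e-06), and its adjusted p stayed at or below 3e-05 when each library was left out in turn.

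The other two genes with opposite effects were XYLT2, a xylosyltransferase that starts glycosaminoglycan chains, and SEL1L3. XYLT2 measured 9.85, 9.87 and 10.5 CPM untreated against 18.3, 21.6 and 21.5 CPM irradiated at 5 h. At 24 h it measured 21.5, 19.1 and 26.2 CPM untreated against 8.82, 14.3 and 14.8 CPM irradiated. Irradiated libraries were thus all above the untreated ones early and all below them late, with a difference of -1.84 ± 0.25 (adjusted p = 0.0039). SEL1L3 went from 78.1 ± 7.86 CPM (SD, n = 3) to 118 ± 2.04 at 5 h and from 39.6 ± 3.87 to 28.7 ± 2.16 at 24 h, with a difference of -1.07 ± 0.14 (adjusted p = 0.0033). The interaction of both genes was called with any single library left out. The call of XYLT2 at 5 h was lost without untreated 5 h replicate 1, 2 or 3 or irradiated 5 h replicate 2 (adjusted p 0.054 to 0.071). SEL1L3 lost its 5 h call without untreated 5 h replicate 2 (0.065) or irradiated 5 h replicate 1 (0.053), and its 24 h call without untreated 24 h replicate 3 (0.054). Without untreated 5 h replicate 2 the genes with opposite effects numbered 1.

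p53 targets took several courses. Of 84 tested list members, 20 rose and 1 fell at 5 h (0.743% and 0.355% of all genes tested). At 24 h 27 rose and 5 fell (3.34% and 7.64% of all genes). The interaction was called for 5, higher at 24 h for CDKN1A, BCL2L1 and SULF2 and lower for SASH1 and TP53INP1. Of all genes tested, 0.125% were called higher and 0.757% lower. Another 17 members were sustained, 16 higher and 1 lower. Among the 16 sustained rises the effect was larger at 5 h in 10 and larger at 24 h in 6. The median interaction of the list was 0.07, against -0.01 over all genes tested, and was -0.02 without irradiated 24 h replicate 3. The list was drawn up with earlier results of these libraries known, so its count is not independent evidence of a direction.

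MDM2, the ubiquitin ligase that degrades p53, had effects of nearly the same size at both times. It measured 190.3, 176 and 198 CPM untreated and 1344, 1167 and 1044 CPM irradiated at 5 h. At 24 h the values were 121, 134 and 121 CPM untreated and 847, 777 and 790.5 CPM irradiated. Both arms were lower at 24 h, and the irradiated libraries stood far above the untreated ones at each time. The log2 effects were 2.66 and 2.68, and the 95% interval of their difference ran from -0.29 to 0.35.

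BAX, a pro-apoptotic BCL2 family member, was also sustained. It measured 24.1, 24.2 and 23.5 CPM untreated against 87.1, 88.4 and 85.3 CPM irradiated at 5 h, and 34.8, 45.2 and 40.8 CPM against 119.8, 119 and 132 CPM at 24 h. Its levels were higher at 24 h in both arms, without overlap of untreated and irradiated libraries at either time. The effects were 1.86 and 1.61, with an interval of the difference from -0.53 to 0.04. ZMAT3, an RNA-binding p53 target, had effects of 2.88 and 3, with an interval of the difference from -0.36 to 0.6. TNS1, a focal adhesion protein, had effects of 4.04 and 3.83, with an interval from -1.06 to 0.64, so a difference of up to about 2-fold in TNS1 cannot be told from none.

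Differences between the times of other sustained p53 targets had either sign and did not pass the adjusted threshold. AEN, a p53-induced exonuclease, had effects of 1.17 and 2.02 (difference 0.85, adjusted p = 0.089), and RPS19, a ribosomal protein, 0.54 and 0.91. PPM1D, the phosphatase that dampens p53 signalling, had 0.58 and 0.6, and TRIAP1, an inhibitor of apoptosis, 0.48 and 0.48. CCNG1, which encodes cyclin G, had effects of 2.17 and 1.72 (difference -0.45, interval -0.7 to -0.19, adjusted p = 0.12). PHLDA3, a repressor of AKT signalling, had the largest effect at 5 h among the sustained genes named here, 5.95, against 4.29 at 24 h (difference -1.66 ± 0.44, adjusted p = 0.12). In PHLDA3 the irradiated arm overlapped between the times, at 32.1, 27.7 and 24.2 CPM and then 19.1, 26.1 and 38.3 CPM, while the untreated arm went from 0.671, 0.439 and 0.26 CPM to 1.45, 1.18 and 1.59 CPM. DESeq2 called this interaction (adjusted p = 0.0055), as did edgeR without irradiated 24 h replicate 3 (0.029). PLXNB2, a semaphorin receptor, had effects of 3.57 and 2.24 (difference -1.33 ± 0.29, adjusted p = 0.058, DESeq2 0.001).

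**Figure D2:**
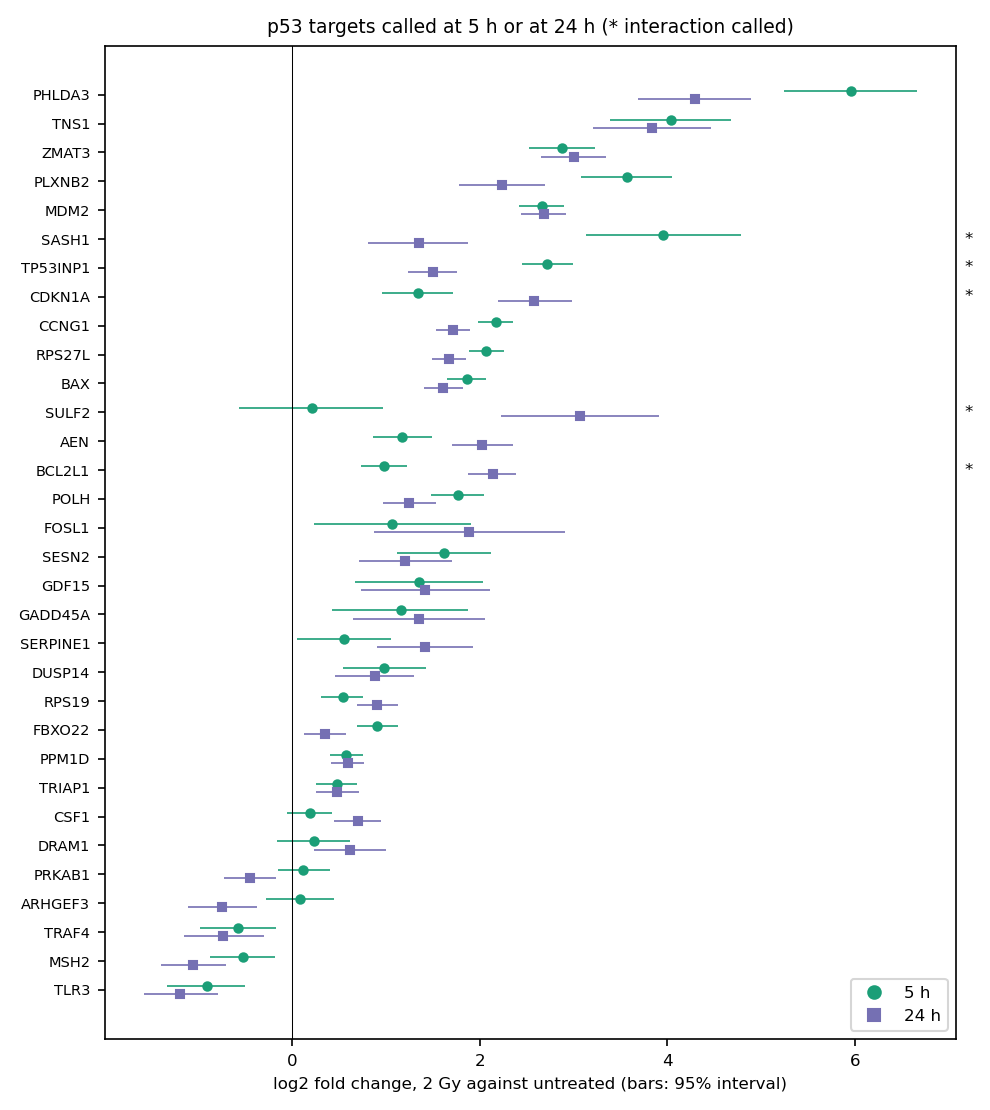
Log2 effect of 2 Gy at 5 h (circles) and at 24 h (squares) with 95% intervals for the 32 p53 list members called at either time; stars mark a called interaction. MDM2, ZMAT3 and BAX have overlapping intervals at the 2 times, SASH1 and TP53INP1 lie further right at 5 h, and CDKN1A, BCL2L1 and SULF2 lie further right at 24 h.

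CDKN1A and BCL2L1 were the 2 genes whose rise grew with time. CDKN1A, the p21 inhibitor of cyclin-dependent kinases, measured 170.3, 226 and 253 CPM untreated and 539.8, 568 and 535 CPM irradiated at 5 h. At 24 h it measured 48.6, 74.7 and 62.1 CPM untreated and 433, 317 and 361 CPM irradiated. Its level was lower at 24 h than at 5 h in both arms, with a log2 change between the times of -1.81 untreated and -0.56 irradiated. The effect was 1.34 at 5 h and 2.58 at 24 h, with a difference of 1.24 ± 0.25 (adjusted p = 0.034). With 1 library left out, the call was kept without untreated 5 h replicate 1, untreated 24 h replicate 2 or irradiated 24 h replicate 2 and lost without each of the other 9 (adjusted p up to 0.1).

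BCL2L1, which encodes the anti-apoptotic protein BCL-XL, followed the same course at closer replicate agreement. Untreated libraries held 98.3, 93.9 and 90.1 CPM at 5 h and 10.6, 12.9 and 11.9 CPM at 24 h. Irradiated libraries held 210.3, 181 and 166 CPM at 5 h and 57.2, 46.6 and 52.2 CPM at 24 h. Levels in both arms were lower at 24 h, more so in the untreated arm. The effects were 0.98 and 2.14, with a difference of 1.16 ± 0.16 (adjusted p = 0.0039, at most 0.02 with any library left out).

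The 6 genes whose rise waned included TP53INP1, a p53-induced nuclear protein with roles in cell death and autophagy. It measured 28.6, 26.8 and 23.7 CPM untreated and 199, 171 and 152 CPM irradiated at 5 h, against 46.3, 46.4 and 50.2 CPM and 119, 149 and 136 CPM at 24 h. In these TMM-scaled values untreated libraries were higher and irradiated libraries lower at 24 h, and the arms did not overlap at either time. The effects were 2.72 and 1.5, a difference of -1.22 ± 0.17 (adjusted p = 0.0039, at most 0.015 with any library left out). SASH1, a scaffold protein, went from 0.224, 0.0627 and 0.26 CPM to 3.01, 2.91 and 2.61 CPM with irradiation at 5 h, and from 5.78, 5.84 and 4.39 CPM to 18.4, 12.4 and 9.64 CPM at 24 h. Its untreated level at 24 h thus exceeded its irradiated level at 5 h, and the effect differed by -2.61 ± 0.47 (adjusted p = 0.02).

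The others with a symbol were PVRL4, the adhesion molecule nectin-4, CHST14, a dermatan sulfotransferase, and DIS3, a ribonuclease of the RNA exosome. Their differences were -1.64 ± 0.28, -1.38 ± 0.25 and -0.68 ± 0.11, with adjusted p = 0.014, 0.02 and 0.012. The DIS3 effect was 1.56 at 5 h and 0.88 at 24 h. The highest adjusted p on leaving out 1 library was 0.052 for PVRL4 (without untreated 5 h replicate 1), 0.066 for CHST14 and 0.057 for DIS3 (both without untreated 5 h replicate 1), and 0.057 for SASH1 (without untreated 5 h replicate 2). CHST14 was also lost without untreated 5 h replicate 3, irradiated 5 h replicate 1 or 2 or irradiated 24 h replicate 2, DIS3 without irradiated 5 h replicate 1 or 2 or untreated 24 h replicate 3, and SASH1 without untreated 5 h replicate 1, irradiated 5 h replicate 2, untreated 24 h replicate 1 or irradiated 24 h replicate 2. Without untreated 5 h replicate 1 or irradiated 5 h replicate 2 the waning genes numbered 2.

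**Figure D3:**
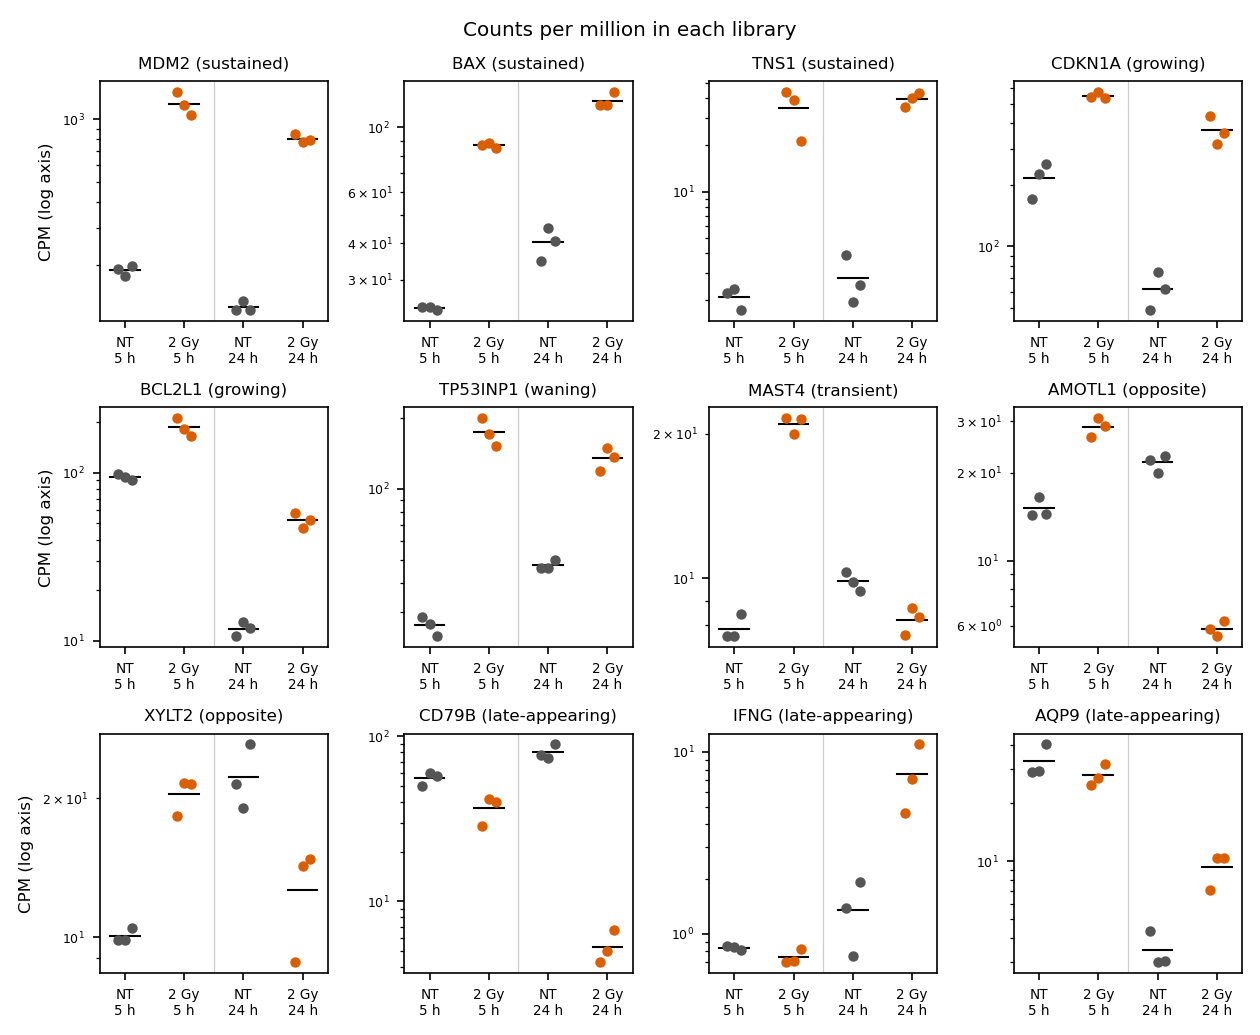
Level of 12 genes in each library in CPM on a log axis, for untreated (NT, grey) and irradiated (2 Gy, orange) libraries at 5 h and 24 h; horizontal bars are means of 3 libraries. Irradiated libraries of AMOTL1 lie above the untreated ones at 5 h and below them at 24 h, while those of MDM2 lie above at both times.

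Transient effects were few. MAST4, a microtubule-associated kinase, measured 7.61, 7.58 and 8.42 CPM untreated and 21.5, 20 and 21.4 CPM irradiated at 5 h. At 24 h it measured 10.3, 9.85 and 9.44 CPM untreated and 7.63, 8.68 and 8.32 CPM irradiated. The irradiated libraries stood well above the untreated ones at 5 h and just below them at 24 h, where the effect of -0.27 was not called (adjusted p = 0.11). The difference of -1.68 ± 0.14 (adjusted p = 9.6e-05) was called with any single library left out.

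The remaining transient genes rested on less. HYLS1, a centriole protein needed for cilia, had effects of 1.47 and 0.27 (difference -1.2 ± 0.22, adjusted p = 0.024). Its untreated level at 24 h, 12 to 15.9 CPM, was near its irradiated level at 5 h, 15.3 to 17 CPM. SLC16A10, a transporter of aromatic amino acids, was lower at 5 h only, with effects of -2.04 and -0.23 (difference 1.82 ± 0.34, adjusted p = 0.026), at levels of 0.506 to 2.47 CPM over all libraries. RFTN2, a lipid raft protein, was also lower at 5 h only, with effects of -1 and 0.13 (difference 1.13 ± 0.21, adjusted p = 0.026). TRPV6, a calcium channel with a mean under 1 CPM that falls outside the naming rule and was chosen after its values were seen, had effects of 3.08 and -0.08. Leaving out 1 library raised the adjusted p to as much as 0.071 for HYLS1, 0.083 for SLC16A10 and 0.091 for RFTN2. The RFTN2 call was lost without any library except untreated 24 h replicate 2 and irradiated 24 h replicate 1, and the SLC16A10 call was kept without untreated 5 h replicate 1, untreated 24 h replicate 2 or irradiated 24 h replicate 1. HYLS1 lost its call without untreated 5 h replicate 1, any irradiated 5 h replicate, or irradiated 24 h replicate 2 or 3. Thinning all libraries to the smallest total gave 0.15 for SLC16A10. The transient genes numbered 1 to 3 without any library except untreated 24 h replicate 2 and irradiated 24 h replicate 1.

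Late falls made up most of the called differences between the times, and most B cell markers were among the genes called lower. Of 24 tested B cell markers, the interaction was called lower for 14 and higher for 0 (0.757% of all genes tested were called lower), 17 were lower at an unadjusted p below 0.05 (7.11% of all genes), and DESeq2 called 17 (1.86% of all genes). The higher count of 0 was also 0 at an unadjusted p and by DESeq2. The median effect of the markers was -0.39 at 5 h and -1.94 at 24 h, and their median interaction was -1.52. At 5 h, 2 of the 24 were called lower (0.355% of all genes), and at 24 h, 18 (7.64% of all genes). A positive interaction was found for 4 of the 24 (47.7% of all genes). At 24 h, 2 were higher at an unadjusted p below 0.05, against 1418 of the 15200 genes tested. The count of called markers was 11 to 17 over all alternatives, in which all interaction calls numbered 76 to 362. The summed level of all 24 was 836 to 1060.5 CPM untreated and 658 to 916 CPM irradiated at 5 h, which overlapped, and 1125 to 1647 CPM untreated and 529 to 984 CPM irradiated at 24 h, which did not.

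CD79B, which signals for the B cell antigen receptor, measured 49.8, 59.7 and 57.6 CPM untreated and 28.7, 41.6 and 40 CPM irradiated at 5 h. At 24 h it measured 76.7, 73.7 and 89.1 CPM untreated and 4.27, 5.01 and 6.7 CPM irradiated. The irradiated libraries were already below the untreated ones at 5 h, by an amount that was not called (-0.6, adjusted p = 0.13), and the gap widened to -3.91. The difference was -3.31 ± 0.24 (adjusted p = 2.9e-05). MS4A1, the CD20 surface protein of B cells, measured 39.9, 53.2 and 59.8 CPM against 23.1, 25.5 and 36.4 CPM at 5 h, and 85.6, 73.4 and 88 CPM against 5.31, 3.85 and 6.04 CPM at 24 h. It too was lower in every irradiated library at 5 h without a call (-0.85, adjusted p = 0.066), and the difference between the times was -3.18 ± 0.29 (adjusted p = 0.00018). CR2, the complement receptor of mature B cells, had effects of -0.7 and -4.17, a difference of -3.47 ± 0.34 (adjusted p = 0.00032). These 3 interactions were called with any single library left out, but whether the gene counted as late-appearing or growing turned on the early call: the early fall of MS4A1 was called without untreated 5 h replicate 1 (adjusted p = 0.04) or irradiated 5 h replicate 3 (0.019).

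The called B cell markers ranged from surface receptors to transcription factors. PAX5 and EBF1, which set B cell identity, had differences of -2.57 ± 0.26 and -2.33 ± 0.35. TNFRSF13C, the receptor for the survival factor BAFF, had -3.03 ± 0.42. FCRL1, an Fc receptor-like protein, fell at both times, from 30.4, 28.8 and 29.8 CPM to 15.3, 20.4 and 20.3 CPM at 5 h and from 49.4, 38.1 and 49.2 CPM to 4.92, 4.52 and 4.47 CPM at 24 h. Its groups did not overlap at either time, and the difference was -2.63 ± 0.19 (adjusted p = 2.9e-05). Its early call was lost without any untreated 5 h replicate or irradiated 5 h replicate 1 or 2 (adjusted p 0.051 to 0.12). Of the 10 markers without a called interaction, BLNK, an adaptor downstream of the receptor, fell at both times by similar amounts (-0.7 and -0.52), and CD37, a tetraspanin shared with other leukocytes, had effects of -0.03 and -0.05.

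FCRL genes sit next to each other in the elephant assembly, which lets neighbours be compared. On scaffold 33, minus strand, from 6045239 to 6365857 in the coordinates of the deposited tables (assembly L_africana_Jul_2009), FCRL5, FCRL4, FCRL3, FCRL2 and FCRL1 follow each other. Their interactions were -1.07 ± 0.2, -1.72 ± 0.23, -1.59 ± 0.26, -0.82 ± 0.23 and -2.63 ± 0.19, called for all but FCRL2 (adjusted p = 0.16). FCRLA, at 11148134 to 11154951 on the plus strand of the same scaffold, had -2.58 ± 0.32. It lies inside the span of FCRLB on the same strand, whose interaction was 0.63 ± 0.16 and not called. Reads shared between these related genes, or between FCRLA and FCRLB, may have been split by the counting, so their separate values are uncertain.

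Some late-appearing falls outside the marker list are given here as single genes, chosen after their values were seen from the 80 that belonged to no list. IGHM, the immunoglobulin M heavy chain, measured 199, 258 and 211 CPM untreated and 115, 151 and 144 CPM irradiated at 5 h, then 322, 284 and 369.6 CPM and 69.7, 87.5 and 63.2 CPM at 24 h. The irradiated libraries lay below the untreated ones at both times, by more at 24 h (difference -1.44 ± 0.22, adjusted p = 0.0071). HLA-DOA, a modulator of peptide loading on class II molecules, had -1.46 ± 0.21, BTLA, an inhibitory lymphocyte receptor, -2.26 ± 0.25, and the transcription factors MEF2C and BCL11A -1.14 ± 0.14 and -1.11 ± 0.2. FAM129C and C16orf74 had growing falls. FAM129C fell at both times, by 1.31 and by 3.74 on the log2 scale, with a difference of -2.43 ± 0.23 (adjusted p = 0.00029). C16orf74 also fell at both times (difference -1.45 ± 0.29, adjusted p = 0.038). With 1 library left out this call was kept without untreated 5 h replicate 1, untreated 24 h replicate 2 or irradiated 24 h replicate 2 and otherwise lost (adjusted p up to 0.11), and it was also lost with upper-quartile scaling (0.066), the stricter filter (0.051) and thinning (0.086).

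Over the 97 late-appearing falls the median effect was -0.22 at 5 h and -1.65 at 24 h, and 81 of the genes carried a symbol. Of the 97, 13 were B cell markers and 80 belonged to no list. The untreated level of 84 of the 97 (86.6%) was within 2-fold between the times, against 67.1% of all genes tested. The irradiated level of 63 was more than 2-fold lower at 24 h than at 5 h, against 1687 of the 15200 genes tested. As a description, the change lay mostly in the irradiated arm. The 97 genes were selected by the interaction and the 24 h effect, so these shares are no independent evidence. Changes within an arm also depend on the scaling across the times, and upper-quartile scaling kept the interaction call of 72 of the 97.

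Among markers of NK and T cells no interaction passed the adjusted threshold. Of 16 NK and cytotoxic markers the interaction was called for 0 by edgeR, with 9 lower and 0 higher at an unadjusted p below 0.05 (7.11% and 2.84% of all genes), and 4 were called lower by DESeq2 (1.86% of all genes). Their median interaction was -0.71, against -0.01 over all genes. At 24 h 10 fell, where 7.64% of all genes were called lower, and at 5 h 0 fell, where 0.355% were. GZMA, a granule protease, measured 43.8, 49.4 and 76.2 CPM against 37.9, 36 and 54.5 CPM at 5 h, which overlapped, and 80.1, 92.4 and 62.4 CPM against 27.8, 24 and 18.7 CPM at 24 h, which did not. Its difference of -1.33 ± 0.33 had an adjusted p of 0.098, and 0.031 without untreated 5 h replicate 3. Of 26 T cell markers 0 were called by edgeR, 2 were lower and 1 higher at an unadjusted p below 0.05, shares near those of all genes, and DESeq2 called 1 lower. At 24 h 6 of the 26 were called lower and 0 higher (7.64% and 3.34% of all genes). CD8A, a co-receptor of cytotoxic T cells, had effects of -0.16 and -1.2 (difference -1.03 ± 0.3, adjusted p = 0.18, and 0.046 without irradiated 24 h replicate 3). UBASH3A went the other way, with effects of -0.24 and 0.52 (difference 0.76 ± 0.25). Its adjusted p was 0.24, and 0.038 without untreated 24 h replicate 2.

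Among 18 dendritic cell markers 3 were called lower (0.757% of all genes), although the list's median interaction was 0.14 (-0.04 and -0.01 without irradiated 24 h replicates 1 and 2). Of the 18, 10 had a positive and 8 a negative interaction (47.7% and 52.3% of all genes). DESeq2 called 1 higher and 4 lower (0.526% and 1.86% of all genes). PLD4, a nuclease of plasmacytoid dendritic cells and B cells, measured 21.5, 25.5 and 20.7 CPM against 14, 15.2 and 14.6 CPM at 5 h, and 23.7, 19.4 and 28.2 CPM against 0.992, 1.84 and 1.93 CPM at 24 h. The groups did not overlap at either time, and the difference was -3.3 ± 0.28 (adjusted p = 9.6e-05). WDFY4, which is needed for cross-presentation, had a called fall at both times and a difference of -1 ± 0.16 (adjusted p = 0.011). Its early call (adjusted p = 0.047) was kept only without irradiated 5 h replicate 3 or irradiated 24 h replicate 1. CLEC9A, a receptor for dead cells, had -3.26 ± 0.65 (adjusted p = 0.038), a call kept only without irradiated 5 h replicate 1, untreated 24 h replicate 3 or irradiated 24 h replicate 1 (up to 0.12). It was also lost with upper-quartile scaling (0.05) and on thinning (0.093). The other lower calls named by the rule came from other lists: CDH5, the VE-cadherin of endothelium, at -1.76 ± 0.29 (adjusted p = 0.011), and BARD1, a subunit of a ubiquitin ligase of double-strand break repair, at -0.68 ± 0.14 (adjusted p = 0.045). CDH5 was called with any library left out, and BARD1 only without untreated 5 h replicate 2 (otherwise up to 0.16); upper-quartile scaling gave BARD1 0.085 and thinning 0.079.

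**Figure D4:**
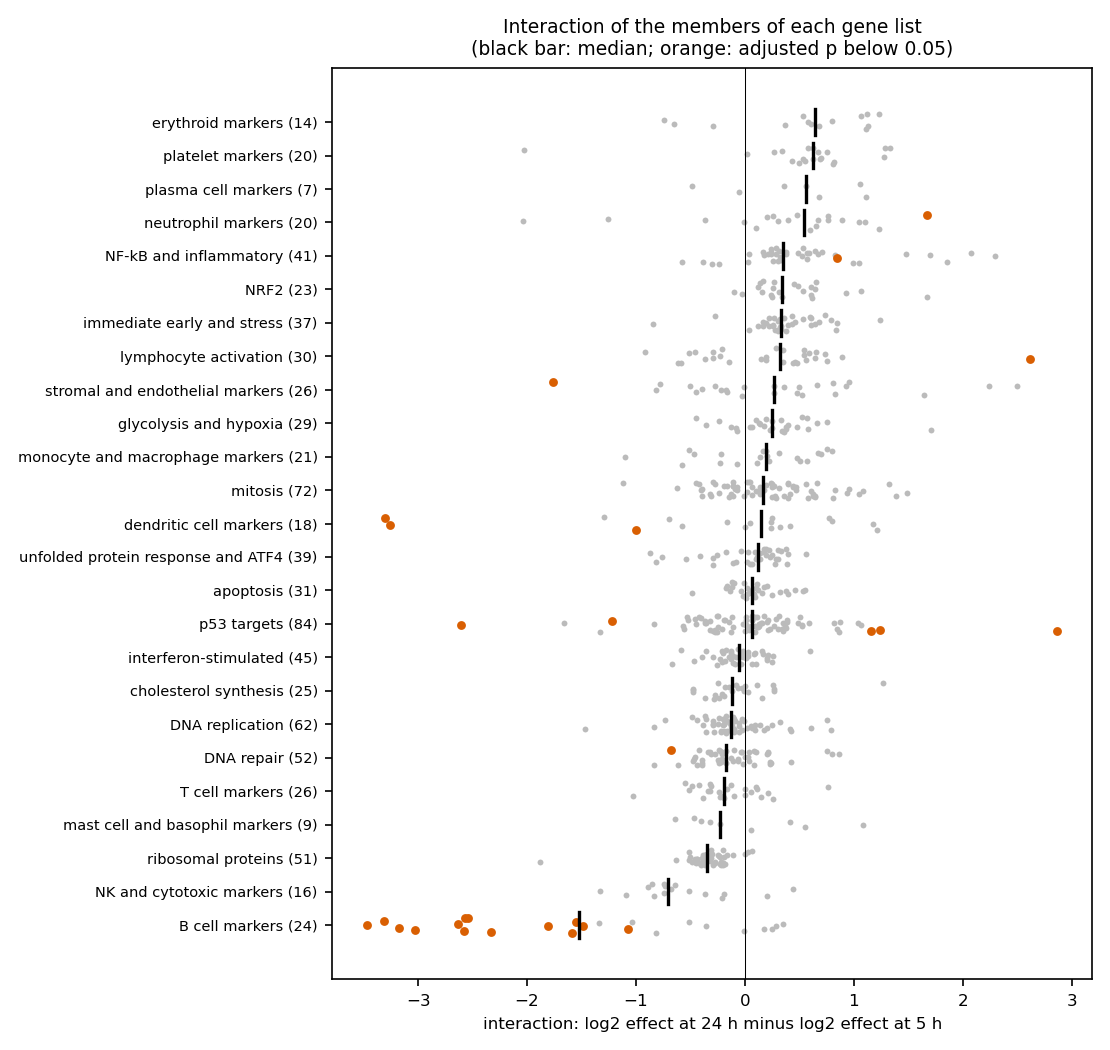
Interaction of every tested member of the 25 gene lists, with the number tested in brackets; orange points have an adjusted p below 0.05 and black bars are list medians. B cell markers lie farthest left, with a median of -1.52, and the p53 list has called members on both sides of 0.

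The 15 late-appearing rises had a different course. The untreated level of 13 of the 15 was more than 2-fold lower at 24 h than at 5 h, against 1511 of the 15200 genes tested. The irradiated level was less reduced: the median change from 5 h to 24 h was -2.34 untreated and -1.25 irradiated. That order was fixed by selecting these genes on the interaction, and the size of both changes depends on the scaling across the times. PHEX, a membrane endopeptidase, measured 77.3, 69.5 and 54.9 CPM untreated and 78.2, 70.2 and 51.7 CPM irradiated at 5 h. At 24 h it measured 8.49, 10.2 and 7.76 CPM untreated and 35.4, 23.9 and 24.9 CPM irradiated. Both arms lay lower at 24 h, and the irradiated libraries, level with the untreated ones at 5 h, stood above them. The difference was 1.68 ± 0.27 (adjusted p = 0.011).

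AQP9, a channel for water and glycerol found in neutrophils, measured 28.9, 29.2 and 40.1 CPM against 24.7, 26.9 and 31.6 CPM at 5 h, and 4.36, 3 and 3.05 CPM against 7.1, 10.4 and 10.4 CPM at 24 h. The arms overlapped at 5 h and not at 24 h, with a difference of 1.67 ± 0.28 (adjusted p = 0.012). FBP1, an enzyme of gluconeogenesis, went from 265, 237 and 163 CPM untreated at 5 h to 10.2, 11.2 and 8.89 CPM at 24 h, and from 235, 201 and 142 CPM to 25.8, 23.3 and 24.1 CPM in the irradiated libraries. The difference of 1.47 ± 0.28 had an adjusted p of 0.025. PHEX and AQP9 were called with any library left out, and FBP1 was lost without untreated 5 h replicate 1 or 2, irradiated 5 h replicate 2, untreated 24 h replicate 1 or 3 or irradiated 24 h replicate 2 (0.053 to 0.074).

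The neutrophil marker list moved in the same samples: its summed level over 20 tested markers was 3002 to 3502 CPM untreated and 3007 to 3378 CPM irradiated at 5 h, then 556 to 768 CPM and 1076 to 1202 CPM at 24 h. In this list CSF3R reached at most 6.56 CPM and AQP9 at most 40.1 CPM in any library, so other members made up most of the sum. Of the 20 neutrophil markers, 1 was called higher (AQP9), against 0.125% of all genes. At an unadjusted p below 0.05, 4 were higher (2.84% of all genes), and the median interaction was 0.54. The platelet list showed the same order at 24 h, 298 to 488 CPM untreated against 577 to 862 CPM irradiated. Its median interaction was 0.63, and 0 of 20 were called by edgeR (0.882% of all genes). At an unadjusted p below 0.05, 4 were higher and 1 lower (2.84% and 7.11% of all genes). DESeq2 called 1 lower (1.86% of all genes). The part of these markers in the late rises was not tested.

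**Figure D5:**
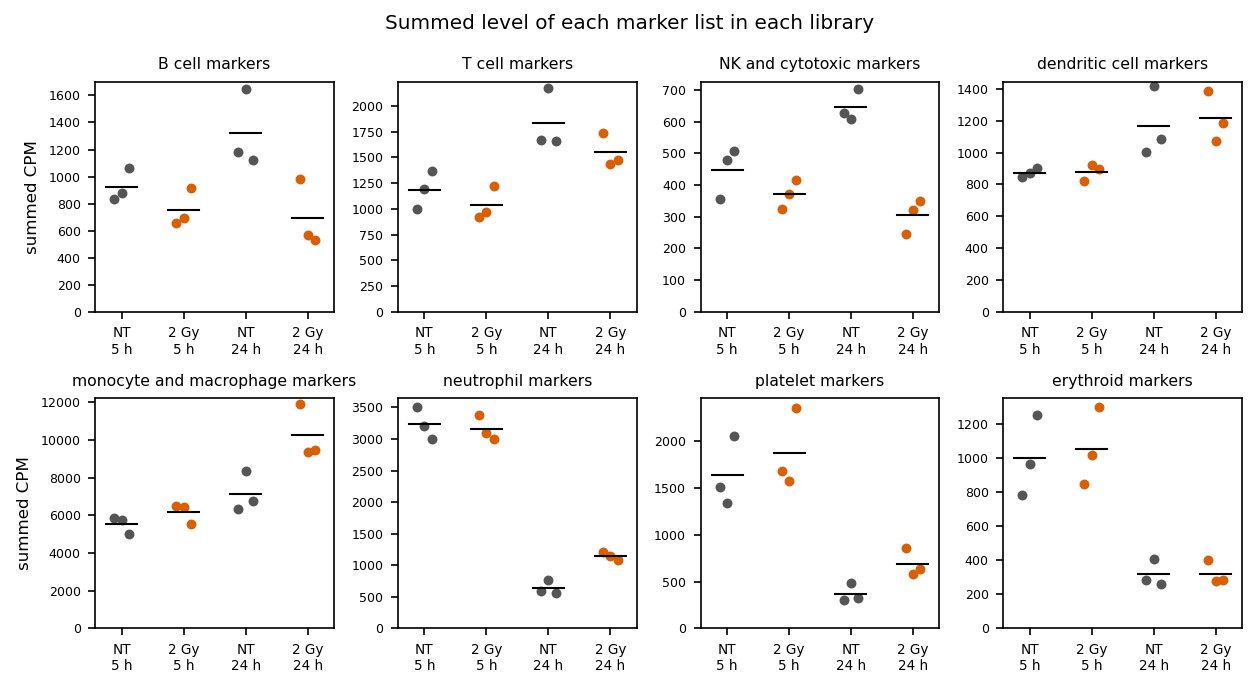
Summed CPM of 8 marker lists in each library, untreated (NT, grey) and irradiated (2 Gy, orange), with group means as bars. The B cell sum separates the arms at 24 h only, and the neutrophil and platelet sums are lower at 24 h in both arms, less so after 2 Gy.

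Among the late-appearing rises named by the rule, only IFNG and SULF2 had no fall in the irradiated arm from 5 h to 24 h. Of all 15 late-appearing rises, 3 were more than 2-fold higher in the irradiated arm at 24 h than at 5 h. IFNG, the cytokine interferon gamma, measured 0.858, 0.846 and 0.812 CPM untreated and 0.696, 0.709 and 0.829 CPM irradiated at 5 h, and 1.39, 0.751 and 1.93 CPM untreated against 4.62, 7.07 and 11 CPM irradiated at 24 h. The 3 irradiated libraries at 24 h stood above the other 9. The difference was 2.62 ± 0.52 (adjusted p = 0.036), a call kept only without untreated 24 h replicate 2 or 3 or irradiated 24 h replicate 1 (otherwise up to 0.11), and thinning all libraries to the smallest total gave 0.18. SULF2, which trims sulfates from heparan sulfate, measured 2.72, 1.79 and 2.21 CPM against 3.04, 2.8 and 1.9 CPM at 5 h and 1.12, 0.231 and 0.591 CPM against 4.5, 6.13 and 5.43 CPM at 24 h. Its arms overlapped at 5 h and stood apart at 24 h (difference 2.87 ± 0.52, adjusted p = 0.022), and the call was lost without 6 of the 12 libraries (0.052 to 0.068), namely untreated 5 h replicate 1 or 3, irradiated 5 h replicate 2 or 3, untreated 24 h replicate 3 and irradiated 24 h replicate 2.

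Of 41 tested NF-kB and inflammatory genes, the interaction was called for IL23A, a cytokine subunit, 9 were higher and 0 lower at an unadjusted p below 0.05 (2.84% and 7.11% of all genes), and 37 had a positive interaction (47.7% of all genes), with a median of 0.35. IL23A measured 129.9, 112 and 129.8 CPM against 106, 117 and 133 CPM at 5 h and 48.8, 57.2 and 51.4 CPM against 92.7, 81.3 and 99.3 CPM at 24 h. The untreated level dropped while the irradiated one stayed closer to its early value, for a difference of 0.85 ± 0.16 (adjusted p = 0.024). The call was kept without untreated 5 h replicate 2, irradiated 5 h replicate 3, untreated 24 h replicate 2 or irradiated 24 h replicate 1 or 2, and was otherwise lost (up to 0.088). IL6, by contrast, rose at both times, with effects of 2.24 and 2 (interval of the difference -1.46 to 0.99). The summed level of these genes was 16015 to 19373 CPM in untreated libraries at 5 h and 4750.2 to 5902 CPM at 24 h, so it too was lower at 24 h without irradiation.

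Of 51 ribosomal protein genes, 49 had a lower effect at 24 h (52.3% of all genes did), with a median interaction of -0.35. None of the 51 passed edgeR's adjusted threshold, a count of 0 beside 27 lower at an unadjusted p below 0.05 (7.11% of all genes) and 6 called lower by DESeq2 (1.86% of all genes). RPL22 measured 189, 203 and 232 CPM against 200, 208 and 209 CPM at 5 h and 189, 195 and 205 CPM against 136, 132 and 140 CPM at 24 h. Its arms overlapped early and stood apart late (difference -0.51 ± 0.12, adjusted p = 0.089). Of 72 mitosis genes, 0 were called by edgeR, and 48 had a positive interaction (47.7% of all genes). At an unadjusted p below 0.05, 7 were higher and 3 lower (2.84% and 7.11% of all genes). DESeq2 called 1 higher (0.526% of all genes), CENPF, a kinetochore protein. Its effect was -0.98 at 5 h and -0.05 at 24 h (difference 0.94 ± 0.25, edgeR adjusted p = 0.14). Of 62 DNA replication genes, 0 were called by edgeR, and DESeq2 called 3 lower (1.86% of all genes). At an unadjusted p below 0.05, 7 were lower and 0 higher (7.11% and 2.84% of all genes). The interaction was negative for 47 of the 62 (52.3% of all genes), with a median of -0.13. DNA2, a nuclease of replication and repair, rose at both times, by 2.23 and 1.5 (difference -0.73 ± 0.16, adjusted p = 0.057, DESeq2 0.005).

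Of the 109 sustained genes, 79 rose and 30 fell at both times. For 62 the 95% interval of the interaction lay within 1 log2 unit of 0, that is, within a 2-fold difference of the effects. Among the 79 rises the effect was larger at 5 h in 56 and larger at 24 h in 23. An unadjusted interaction p below 0.05 was found for 32 of the 109, and DESeq2 called 10 of them, so a sustained call does not show that the effect was equal at the 2 times. GNAT1, the transducin subunit of rod cells, measured 0.149, 0.0313 and 0.065 CPM untreated and 3.45, 4.44 and 2.83 CPM irradiated at 5 h, and 0.169, 0.0867 and 0.091 CPM against 4.62, 2.28 and 3.35 CPM at 24 h. Untreated libraries reached 0.169 CPM at most and irradiated ones held at least 2.28 CPM, with effects of 5.43 and 4.89 (interval of the difference -2.11 to 1.02). IZUMO4 had effects of 3.12 and 2.88. NOTCH3, a Notch receptor singled out after its values were seen, had effects of 1.58 and 3.86 (difference 2.27 ± 0.55, adjusted p = 0.089 by edgeR and 6.2e-04 by DESeq2).

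Sustained falls included KIT, the stem cell factor receptor of mast cells and progenitors. It measured 7.05, 5.8 and 6.08 CPM against 2.34, 2.13 and 3.22 CPM at 5 h and 6.39, 5.78 and 4.66 CPM against 1.87, 1.79 and 1.52 CPM at 24 h. The arms did not overlap at either time, and the effects of -1.29 and -1.69 differed by -0.4, with an interval from -0.98 to 0.19. SYBU, a kinesin adaptor, had effects of -2.61 and -3.31, SSTR3, a somatostatin receptor, -1.41 and -1.49, FILIP1L, a filamin-interacting protein, -1.43 and -0.98, and OR51E1, an olfactory receptor, -2.29 and -1.86. ATM, the kinase that signals double-strand breaks, was not called at either time, with effects of 0.08 and -0.15 and a difference of -0.23 (interval -0.46 to 0).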

How the data were processed

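RNA was sequenced from African elephant blood as total RNA after ribosomal depletion, with a stranded library kit, per the labels' protocols. The authors deposited, for each time, a table of read counts per Ensembl gene and library, with columns named per the file headers, on assembly L_africana_Jul_2009. Aligner, counter and strand setting: not given in the sources used here. Overlapping genes therefore cannot be separated. The deposited FPKM, log and log-ratio columns were not used. Groups and replicate numbers were taken from the labels.

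The 12 count columns were joined by Ensembl ID (16406 rows, 2663 without a symbol). Genes were kept by edgeR's filterByExpr (15200 tested), scaled by TMM and fitted in 1 model of 4 group means (edgeR 4.0.16, R 4.3.3). Contrasts were tested with edgeR's quasi-likelihood test, and p-values were adjusted by Benjamini-Hochberg over all tested genes at 0.05, and intervals are 95%. Effects are log2 differences of fitted levels. The library levels are CPM (counts-per-million) computed from the counts and the TMM-scaled library totals. The TMM factors were 0.849 to 0.887 at 5 h and 1.094 to 1.291 at 24 h. Levels set against each other across the times depend on this scaling. CPM is not corrected for gene length, so levels are compared between libraries and not between genes. DESeq2 1.42.0, upper-quartile scaling, no filter and a stricter filter on low counts (1 CPM in 6 libraries), replicate blocks, thinning to the smallest total, and leaving out each library were tried as alternatives.

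Counts for the interaction over 15200 genes were simulated independently for each gene and library from the fitted dispersions. Genes given a true difference had a mean of at least 1 CPM. The test recovered 4% of genes with a true log2 difference of 0.5, 48% at 1, 84% at 2 and 98% at 3 (50 genes each), and 5.65% of calls were false. The simulation held no deviations shared between genes, as same-numbered samples at 5 h had. The 5.65% therefore need not hold for the calls on the real counts.

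Genes were named by a rule over symbols with a mean of at least 1 CPM: up to 5 per class and direction with the largest interaction, for sustained genes up to 5 per direction by the smaller of the effects, up to 3 unresolved genes per direction, up to 2 members of each of 25 lists with the smallest interaction p, and CDKN1A, MDM2, BAX, CCNG1, BCL2L1, IL6, IFNG and ATM. AEN, RPS19, PPM1D, TRIAP1, PLXNB2, NOTCH3, TRPV6, PAX5, EBF1, TNFRSF13C, BLNK, CD37, the other FCRL genes, IGHM, HLA-DOA, BTLA, MEF2C and BCL11A fall outside it and were chosen after their values were seen. The members and lists were chosen with earlier results of these data known.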

Additional observations from a re-analysis of the deposited data

Results flagged for a closer look

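A test of the difference between the times (the edgeR interaction) singled out 134 genes, and among the genes named by the rule it singled out the following, each as the log2 effect at 24 h minus that at 5 h. Groups of 3 libraries were not tested for single outlying libraries. All differences named here kept their sign in every alternative that gave a value.

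Upward effects called at 24 h but not at 5 h differed by 2.87 for SULF2, 2.62 for IFNG and 1.68 for PHEX. They differed by 1.67 for AQP9, 1.47 for FBP1 and 0.85 for IL23A. Downward effects called at 24 h but not at 5 h differed by -1.76 for CDH5 and -0.68 for BARD1. They differed by -3.47 for CR2, -3.31 for CD79B, -3.3 for PLD4, -3.26 for CLEC9A and -3.18 for MS4A1. CR2, CD79B, PLD4, CLEC9A and MS4A1 were already lower at 5 h without a call, each with a wholly negative 95% interval of the effect. Transient effects differed by -1.68 for MAST4 and -1.2 for HYLS1, which rose at 5 h, and by 1.82 for SLC16A10 and 1.13 for RFTN2, which fell at 5 h.

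Effects that grew differed by 1.24 for CDKN1A and 1.16 for BCL2L1, and by -2.63 for FCRL1, -2.43 for FAM129C, -1.45 for C16orf74 and -1 for WDFY4. Effects that waned differed by -2.61 for SASH1, -1.64 for PVRL4, -1.38 for CHST14, -1.22 for TP53INP1 and -0.68 for DIS3. Effects of opposite sign differed by -2.82 for AMOTL1, -1.84 for XYLT2 and -1.07 for SEL1L3.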

How the results depend on the processing

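The 134 interaction calls kept their sign in every alternative that tested them (133 were tested under the stricter filter), and DESeq2 shared 133 of them. Upper-quartile scaling shared 107, with 72 of the 97 late-appearing falls. The fewest, 75, were shared without irradiated 5 h replicate 2, with 3 of the 15 late-appearing rises. DESeq2 called more: 362 interactions (80 higher, 282 lower), 324 genes at 5 h, 297 late-appearing, 11 transient, 27 growing, 11 waning, 12 unresolved and 192 sustained. Upper-quartile scaling gave 33 higher interactions and 1 unresolved gene, and the stricter filter gave 34 and 1. Thinning and no filter left every count within 1.5 times. The cause was not tested.

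With 1 library left out, interaction calls ranged from 76 to 168 (higher 4 to 51, lower 72 to 117), calls at 5 h from 103 to 217 and at 24 h from 1035 to 1977. Late-appearing genes ranged from 66 to 144, transient from 1 to 7, growing from 3 to 10, waning from 2 to 7, opposite from 1 to 4, unresolved from 0 to 1 and sustained from 75 to 135.

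Samples of the same number deviated together at 5 h (r across 10634 genes 0.6, 0.62 and 0.77) but not throughout at 24 h (-0.13, -0.55 and 0.82), so the numbers were not taken as pairs. A replicate block within each time gave 268 interactions (69 higher, 199 lower), 281 calls at 5 h, 216 late-appearing, 27 growing, 10 waning, 7 opposite, 1 unresolved and 184 sustained genes. A replicate block by number across times gave 139 interactions and 12 growing genes. Among the genes named in the report, the block within each time ended the interaction calls of CDKN1A (adjusted p = 0.057) and C16orf74 (0.068) and made calls of PHLDA3 (0.037), GZMA (0.0028) and CD8A (0.033). The block by number ended those of CLEC9A (0.062) and C16orf74 (0.066).

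Depth was 18022475 to 38138163 counts per library. With 3 libraries per group the simulated recovery of a log2 difference of 0.5 was 4%. Under the independent draws of that simulation, small differences between the times were thus mostly not detectable.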
